A study of Mus musculus with 10 samples.

Results

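Klf2, Klf4, Klf6, Thbd, Piezo1, Cav1 and S1pr1 were described in the lungs of pups that had lost 1 copy of Dll4. These 7 genes were chosen by name, as genes that respond to or sense blood flow in endothelial cells (EC), from a table of 35275 genes. All 7 passed the filter on low values that left 13610 genes for testing. Pups of the outbred CD1 strain were killed at postnatal day 6 (P6), while alveoli form. Dll4+/- pups carried 1 germline allele in which lacZ replaced Dll4, an endothelial ligand of Notch receptors, in all cells of the body. Dll4+/+ littermates carried both alleles, and no pup received any other treatment according to the labels. Whole lung RNA was sequenced in 4 Dll4+/- and 6 Dll4+/+ pups. Values were available for 4 pups of each genotype, with 2 of each labelled female, and only these were compared. Levels are in FPKM, the fragments of a gene scaled to its exon length in kilobases and to the mapped total of the library, so they can be compared between genes.

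Steady laminar flow over EC is sensed at the membrane by channels such as PIEZO1 and by complexes at cell junctions and in caveolae. In cultured and embryonic EC it activates the kinases MEKK3, MEK5 and ERK5 and then MEF2 factors at the Klf2 promoter, and KLF2 and KLF4 raise anticoagulant and vasodilator genes such as Thbd and Nos3 and lower Edn1 and Vcam1. KLF2 also keeps T cells quiescent and maintains S1pr1 in them, so whole lung levels of these transcripts have more than 1 cellular source.

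The promoter of Klf2 is shown because MEF2 factors are known to induce the gene there, and that of Klf4 because it is the nearest relative of Klf2 among the members. RefSeq (GRCm38.p6) had promoter entries for 5 of the 7 genes, namely Klf2, Klf4, Klf6, Piezo1 and Cav1. The sequences run 5′ to 3′ over the 250 bases before the RefSeq start of each gene. They span chr8:72318812-72319061 on the plus strand for Klf2 and chr4:55532476-55532725 on the minus strand for Klf4. Capitals mark a match to the MEF2 consensus.
Klf2: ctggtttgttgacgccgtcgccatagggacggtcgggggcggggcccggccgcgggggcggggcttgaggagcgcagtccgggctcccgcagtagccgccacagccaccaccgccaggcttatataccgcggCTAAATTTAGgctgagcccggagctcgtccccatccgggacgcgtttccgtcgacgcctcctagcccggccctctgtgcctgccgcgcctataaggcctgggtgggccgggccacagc
Klf4: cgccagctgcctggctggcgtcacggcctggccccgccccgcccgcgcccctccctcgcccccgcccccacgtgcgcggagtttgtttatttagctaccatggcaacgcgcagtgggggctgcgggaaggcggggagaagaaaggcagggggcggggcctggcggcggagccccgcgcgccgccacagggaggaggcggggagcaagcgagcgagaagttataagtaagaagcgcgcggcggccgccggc
The match in Klf2 began 118 bases before the RefSeq start. Of 32851 RefSeq mouse promoters, 167 (0.508%) held such a match in this window. Klf4, Klf6, Piezo1 and the 2 promoters listed for Cav1 held 0. The letters CACCC, the core of the element bound by Kruppel-like factors, were searched on both strands and overlap no letters of the MEF2 match. They occurred in Klf2, 19 bases before the RefSeq start, and in Piezo1, 96 bases before its own, both on the strand opposite to the gene. They occurred in 0 of the promoters of Klf4, Klf6 and Cav1. CACCC was present in 52.0% of all promoters. A match is a description of letters, and binding was not measured.

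In the GENCODE M21 annotation of GRCm38, all 7 are protein-coding genes. Klf2 (ENSMUSG00000055148) lies at chr8:72319033-72321656 and Piezo1 (ENSMUSG00000014444) on the same chromosome at chr8:122481698-122551329. Klf4 (ENSMUSG00000003032) lies at chr4:55527143-55532466 and Klf6 (ENSMUSG00000000078) at chr13:5861482-5870394. Thbd (ENSMUSG00000074743) lies at chr2:148404466-148408188, Cav1 (ENSMUSG00000007655) at chr6:17306335-17341452 and S1pr1 (ENSMUSG00000045092) at chr3:115710433-115715072. The GENCODE starts of Klf2 and Klf6 differ from the RefSeq starts and lie inside the promoter windows used above. In Klf2 the MEF2 match lies before the GENCODE start and the CACCC letters after it.

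Dll4 was measured first as a check of the genotype. Its level was 11.4, 15.6, 20.7 and 11.6 FPKM in Dll4+/- replicates 1 to 4 and 22.7, 25.8, 30.7 and 31.3 FPKM in Dll4+/+ replicates 3 to 6. All Dll4+/- libraries lay below all Dll4+/+ libraries, with a log2 fold change of -0.88 (SE 0.19) and an exact permutation p of 0.0286, the smallest that 4 against 4 libraries allow. No gene passed the adjusted threshold of 0.05 in limma, Dll4 included (adjusted p = 0.811), and 457 of 13610 genes (3.36%) had an unadjusted p under 0.05, 260 (1.91%) lower and 197 (1.45%) higher in Dll4+/-. The libraries of the 2 genotypes did not overlap for 425 genes (3.12%), with Dll4+/- below for 230 (1.69%) and above for 195 (1.43%). Voom on recovered fragments also called 0 genes, with 407 under the unadjusted threshold. Recovered depth was 17201662 to 22927840 fragments per library. Each library was correlated with the others over genes, and the median Spearman rho was 0.981 to 0.985 in 5 of the 8. It fell short of that in Dll4+/- replicate 1 (0.919), in Dll4+/- replicate 4 (0.956) and in Dll4+/+ replicate 3 (0.964), and results are also given without the Dll4+/- pair. Dll4+/- replicate 2 is labelled female but had Xist at 0.273 and the Y-linked Ddx3y at 20.3 FPKM, which goes against that label.

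The 7 transcripts were well measured in every library. Cav1, the structural protein of caveolae, was the most abundant, with a mean of 291 FPKM over the 8 libraries, and lay at the 98.8th percentile of the genes tested. Klf2 followed at 135 FPKM (96.7th percentile), then Thbd at 94.0, S1pr1 at 64.9, Klf4 at 54.3 and Klf6 at 40.3 FPKM. Piezo1 was the lowest of the 7, at 11.4 FPKM (54.6th percentile), with 514 to 2691 recovered fragments per library. Cav1 exceeded Klf2 in 8 of 8 libraries, Thbd exceeded S1pr1 in 8 of 8 and Klf6 exceeded Piezo1 in 8 of 8. The other neighbours changed places. Klf2 exceeded Thbd in 6 of 8 libraries, with a ratio of 0.961 to 2.15, and S1pr1 exceeded Klf4, and Klf4 exceeded Klf6, in 7 of 8 each.

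**Figure D1:**
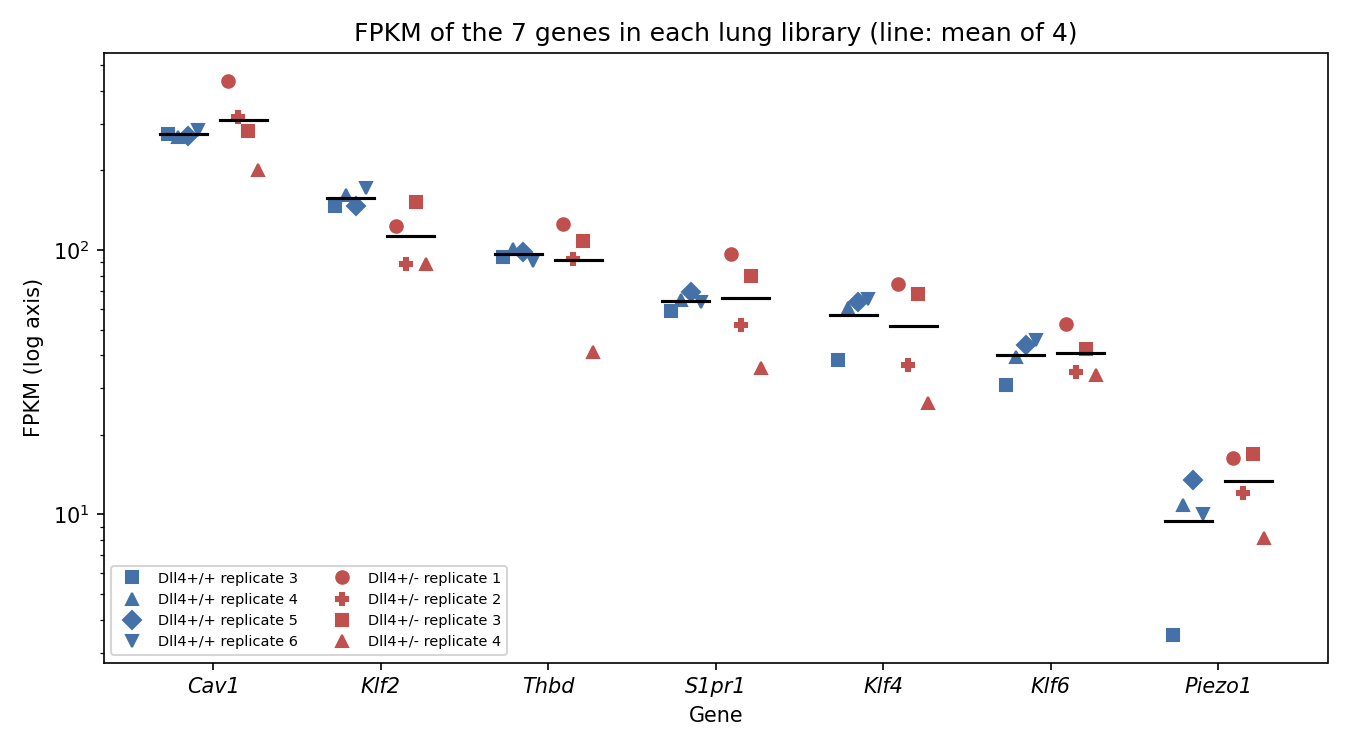
FPKM of the 7 genes on a log axis, with 1 point per lung library (blue, Dll4+/+; red, Dll4+/-) and a line at the mean of 4. Klf2 was lower in 3 of 4 Dll4+/- libraries than in any Dll4+/+ library, while for Thbd, Cav1 and S1pr1 the Dll4+/- points spread to both sides of a tight Dll4+/+ group.

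Klf2, the flow-induced transcription factor of quiescent endothelium, had the lowest ratio of Dll4+/- to Dll4+/+ means of the 7. Its level was 123, 88.6, 152 and 88.6 FPKM in Dll4+/- replicates 1 to 4, against 147, 161, 147 and 172 FPKM in Dll4+/+ replicates 3 to 6. Replicates 1, 2 and 4 lay below every Dll4+/+ library, and replicate 3 lay inside the Dll4+/+ range, so the groups overlapped. The means were 113 ± 30.8 and 157 ± 12.1 FPKM (SD, n = 4 each), a ratio of 0.723. On log2(FPKM + 1), the scale of all fold changes here, the difference was -0.50 (SE 0.18, 95% interval -0.91 to -0.09). Its limma p was 0.0228 unadjusted and 0.811 adjusted over all genes, and its exact permutation p was 0.0857. Klf2 was thus the 1 member of 7 under the unadjusted threshold, as 3.36% of all genes were, 1.91% in its direction, and the genotypes overlapped for each of the 7. In whole lung, fewer cells of a type and less RNA per cell cannot be told apart.

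The difference of Klf2 did not rest on 1 library for its sign. Leaving out each library in turn gave log2 fold changes of -0.65 to -0.40, and without both Dll4+/- replicates 1 and 4 it was -0.42. Beside the fit over all libraries, the value was negative in 18 of 18 other settings, 1 of them chosen after seeing the data, with an unadjusted limma p under 0.05 in 11 of them (range 0.00286 to 0.259) and adjusted limma p-values of 0.623 to 1. Dll4+/- replicate 3 was the only Dll4+/- library inside the Dll4+/+ range, so leaving it out fixed a separation of the groups in advance. The difference was then -0.65, and the exact permutation p of 0.0286 in that setting reflects this choice. By labelled sex the difference was -0.40 in females and -0.60 in males, and the interaction was -0.20 (SE 0.40, limma adjusted p = 0.897). Interactions of the other 6 members also missed the threshold, with limma adjusted p-values of 0.799 to 0.997, where 3 genes of the whole table passed it. These contrasts rest on 2 libraries in each of 4 groups, and the labelled female that lacked Xist is among them.

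**Figure D2:**
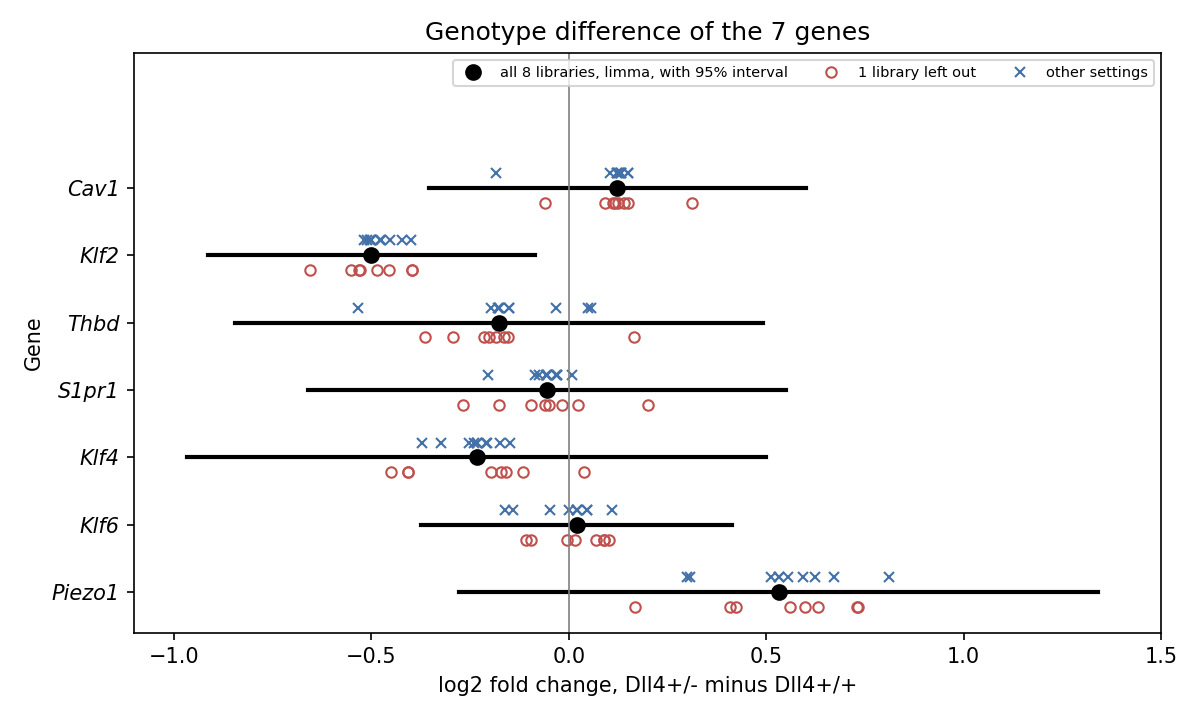
Log2 fold change of the 7 genes, Dll4+/- minus Dll4+/+, with the limma 95% interval over all 8 libraries (black), the values with 1 library left out (red circles) and those of the other settings (blue crosses). The interval of Klf2 (-0.91 to -0.09) was the one of the 7 that did not span 0, and its values stayed negative in each setting.

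Klf4 and Klf6, the other Kruppel-like factors of the group, differed less than their libraries did among themselves. Klf4, which overlaps KLF2 in its endothelial targets and is also made in epithelium, stood at 74.6, 36.8, 68.4 and 26.5 FPKM in Dll4+/- replicates 1 to 4 and at 38.5, 60.4, 63.6 and 65.3 FPKM in Dll4+/+ replicates 3 to 6. Replicates 1 and 3 of the Dll4+/- group lay above every Dll4+/+ library and replicates 2 and 4 below every one. The log2 fold change was -0.23 (SE 0.33, 95% interval -0.97 to 0.50, limma adjusted p = 0.858). Klf6, an early gene of vascular injury, stood at 52.6, 34.5, 42.2 and 33.6 FPKM against 30.9, 39.2, 43.8 and 45.8 FPKM. Its groups overlapped almost fully, with a log2 fold change of 0.02 (SE 0.18, 95% interval -0.37 to 0.41, limma adjusted p = 0.980).

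Thbd and S1pr1, which KLF2 raises in cultured EC, had nearly equal group means and unequal spreads. Thbd encodes thrombomodulin, the endothelial receptor that turns thrombin towards activating protein C. Its level was 126, 92.1, 108 and 41.2 FPKM in Dll4+/- replicates 1 to 4 and 94.4, 100.5, 98.4 and 91.1 FPKM in Dll4+/+ replicates 3 to 6. Dll4+/- replicates 1 and 3 were above all Dll4+/+ libraries and replicate 4 was far below them, so that the SD was 36.4 FPKM, against 4.17 FPKM in Dll4+/+. The log2 fold change was -0.18 (SE 0.30, 95% interval -0.85 to 0.49, limma adjusted p = 0.883). Thbd lies on chromosome 2, 29.1 Mb from Dll4. S1pr1, the receptor through which sphingosine-1-phosphate tightens endothelial junctions, stood at 96.3, 51.9, 79.4 and 35.7 FPKM against 58.7, 64.7, 69.3 and 63.3 FPKM. Replicates 1 and 3 were again above, and replicates 2 and 4 below, every Dll4+/+ library, and the log2 fold change was -0.05 (SE 0.27, 95% interval -0.66 to 0.55, limma adjusted p = 0.961).

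Cav1 and Piezo1 stand for the membrane side of flow sensing. Cav1 stood at 436, 318, 282 and 201 FPKM in Dll4+/- replicates 1 to 4 and at 274, 267, 269.5 and 283 FPKM in Dll4+/+ replicates 3 to 6. The Dll4+/+ libraries differed from each other by a coefficient of variation of 2.61%, against 31.6% in Dll4+/-, where replicates 1 and 2 were above and replicate 4 below all of them. The log2 fold change was 0.12 (SE 0.21, 95% interval -0.35 to 0.60, limma adjusted p = 0.886). An antisense gene, Gm15581, overlaps Cav1, and no source gives whether reads were counted by strand.

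Piezo1, the mechanically gated cation channel, had the largest positive log2 fold change of the 7. Its level was 16.4, 12.1, 16.9 and 8.16 FPKM in Dll4+/- replicates 1 to 4 and 3.51, 10.8, 13.5 and 10.02 FPKM in Dll4+/+ replicates 3 to 6. Dll4+/+ replicate 3 was far below the other 7 libraries, and the remaining libraries of both groups overlapped. The log2 fold change was 0.53 (SE 0.36, 95% interval -0.28 to 1.34, limma adjusted p = 0.811, exact permutation p = 0.314), and it was 0.17 without Dll4+/+ replicate 3 (limma adjusted p = 0.955). In that library the 2263 genes of 8000 or more exon bases lay at a median of -0.24 from their mean over the 8 libraries, and the 2386 genes under 2000 bases at 0.27, on the log2 scale. In the other 7 libraries these medians were -0.06 to 0.12 and -0.13 to 0.08. Piezo1 has 9935 annotated exon bases and lay at -1.36, and the part of transcript length in its value was not tested. Ctu2 and Gm20388 overlap Piezo1 on the other strand and the small nuclear RNA Gm26497 on its own.

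The spread among Dll4+/- pups was a feature of several members. On the log2 scale the SD in Dll4+/- was 12.4 times that in Dll4+/+ for Cav1, 11.4 times for Thbd and 6.42 times for S1pr1, which lay at the 98.5th, 98.0th and 93.9th percentiles of this ratio among all genes tested. Without Dll4+/- replicate 4, a setting added after seeing the data, the ratio was 3.57 for Thbd, 4.59 for S1pr1 and 8.72 for Cav1. These lay at the 83.2nd, 88.5th and 96.4th percentiles, and the median ratio of all genes was 1.42. Without Dll4+/- replicate 1 the ratios were 11.8, 5.78 and 9.18 in the same order, at the 99.5th, 96.6th and 98.9th percentiles, with a median of 1.18. Over all 8 libraries the ratio was 3.48 for Klf2, 2.00 for Klf4, 1.19 for Klf6 and 0.602 for Piezo1. The SD was higher in Dll4+/- for 73.5% of all genes, with a median ratio of 1.68. The Dll4+/+ SDs rest on the 4 of 6 sequenced pups that had values. The sources used here do not give why the other 2 had none. Whether those 2 would have widened the Dll4+/+ spread could not be tested. Markers of EC went the same way as Cav1, Thbd and S1pr1 in Dll4+/- replicates 1 and 4. The mean of 12 pan-endothelial markers was at 0.36 from its 8-library mean in Dll4+/- replicate 1, at -0.43 in replicate 4 and between -0.03 and 0.09 in the other 6. In Dll4+/- replicates 2 and 3 it was 0.02 and 0.09, where S1pr1 stood at -0.27 and 0.34. The 12 markers summed to 1346 to 2152 FPKM in Dll4+/- libraries and 1758 to 1966 FPKM in Dll4+/+ libraries, and their part in the spread of the members was not tested. General capillary markers stood at 0.41 and -0.77 in Dll4+/- replicates 1 and 4, and alveolar type I markers at 0.39 and -0.43. Fibroblast markers stood at -0.12 and -0.63 in these libraries. Alveolar type II markers went the other way from those of EC, at -0.51 and 0.61. The 9 neutrophil markers summed to 1407 FPKM in Dll4+/- replicate 1 and to 94.5 to 199.9 FPKM in the other 7 libraries.

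**Figure D3:**
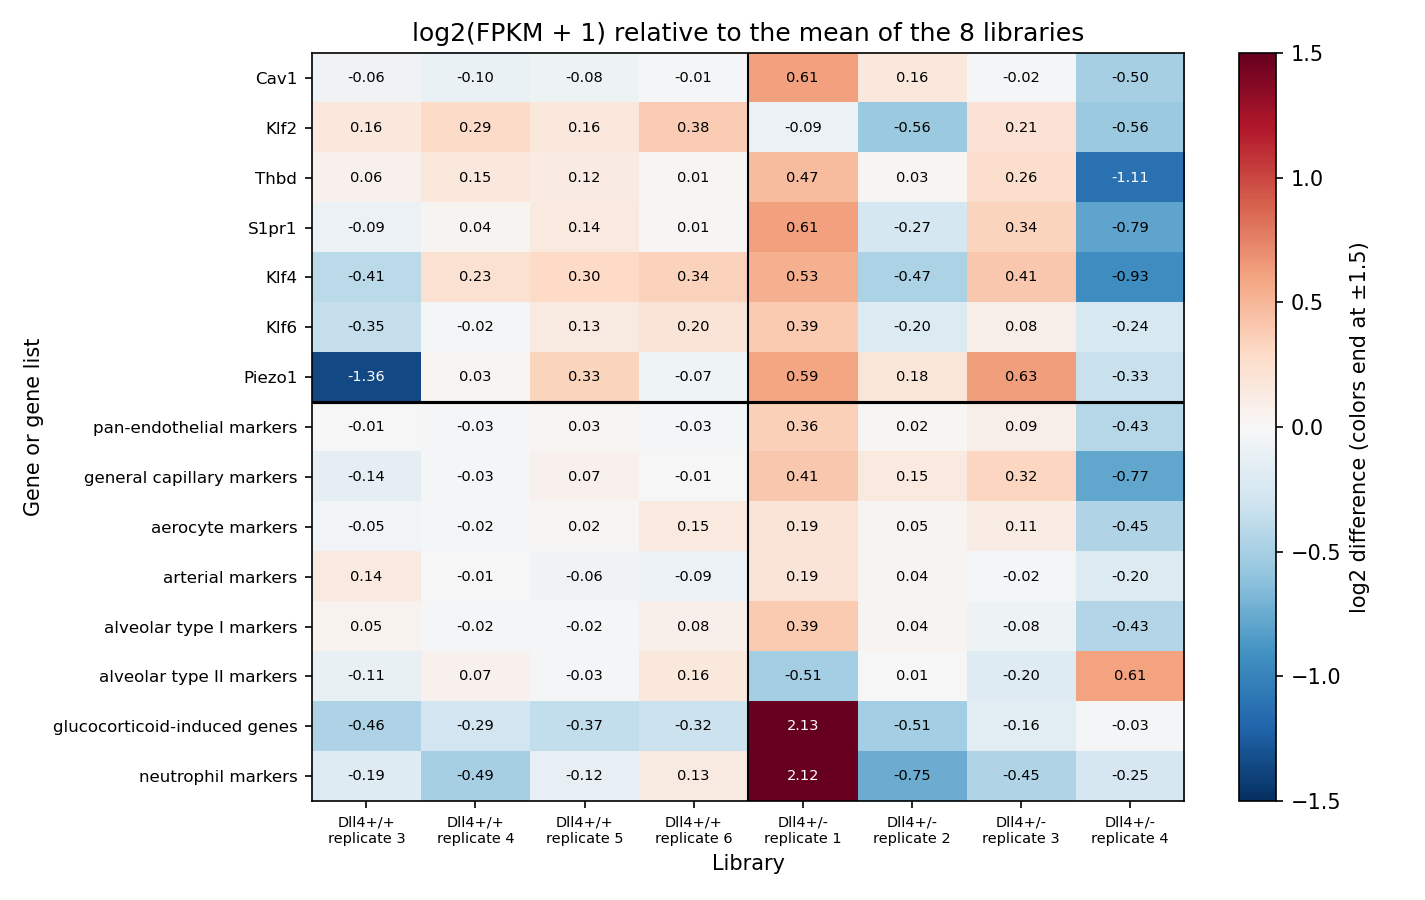
Log2(FPKM + 1) relative to the mean of the 8 libraries, for the 7 genes and for lists of cell type and response genes, with libraries in columns and red above the mean. Of the 7 genes, 6 were above 0 in Dll4+/- replicate 1 and all were below 0 in Dll4+/- replicate 4, where pan-endothelial markers stood at 0.36 and -0.43, whereas Klf2 was -0.09 in replicate 1.

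Levels relative to the 12 pan-endothelial markers were compared next, to ask whether the difference of Klf2 was as large when set against the endothelial signal of the same library. These markers are not separate from the flow genes. Pecam1, Cdh5, Tie1 and Eng are also in the list of flow sensors below, and Tek in that of genes raised by flow or KLF2. Between genotypes the log2 fold changes of the 12 markers ran from -0.44 to 0.28, with a median of 0.03. Relative to the mean log2 level of the markers, Klf2 stood at -0.03, -0.16, 0.55 and 0.29 in Dll4+/- replicates 1 to 4 and at 0.58, 0.74, 0.56 and 0.83 in Dll4+/+ replicates 3 to 6. All Dll4+/- libraries were lower, although Dll4+/- replicate 3 (0.547) and Dll4+/+ replicate 5 (0.557) almost touched. On this relative scale the libraries of 107 of 13610 genes (0.786%) were separated in the same direction. The difference was -0.52 (SE 0.20), with an exact permutation p of 0.0286 and a limma adjusted p of 1. In the same fit 164 genes had an unadjusted p under 0.05. The other 6 members overlapped between genotypes on this scale. Their differences were -0.25 for Klf4, 0.00 for Klf6, -0.20 for Thbd, 0.51 for Piezo1, 0.10 for Cav1 and -0.07 for S1pr1, with exact permutation p-values of 0.200 to 1. Thbd in Dll4+/- replicate 4 stayed below the other libraries.

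**Figure D4:**
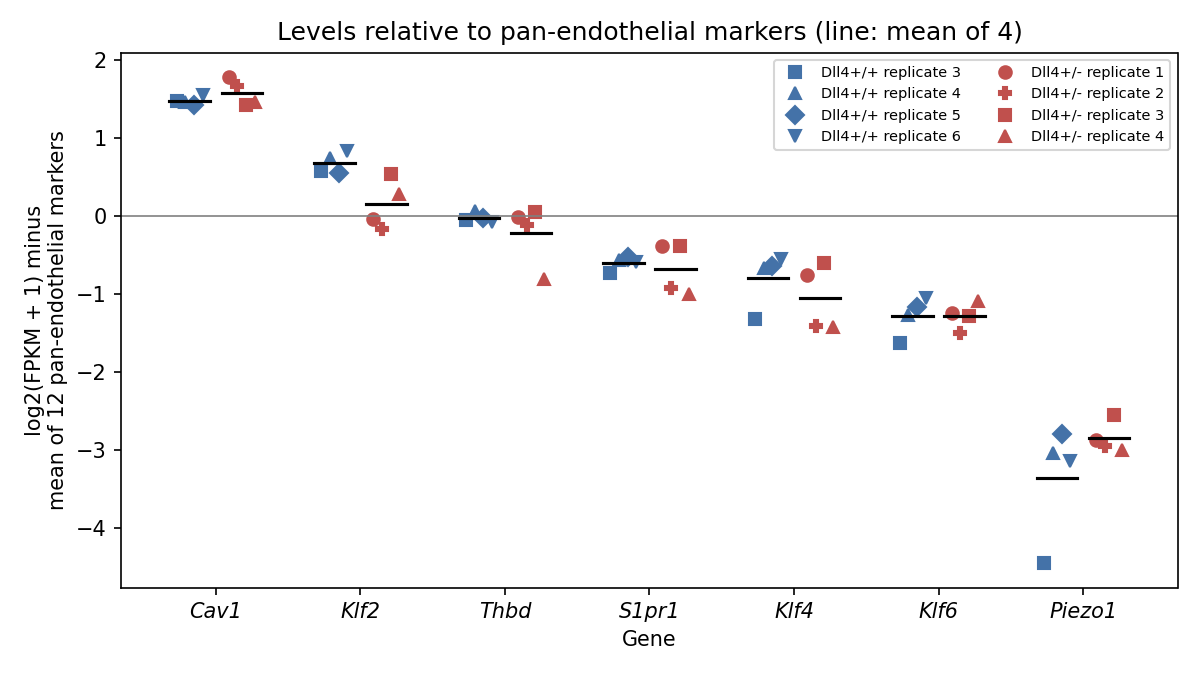
Log2(FPKM + 1) of the 7 genes minus the mean of 12 pan-endothelial markers in the same library, with 1 point per library (blue, Dll4+/+; red, Dll4+/-) and a line at the mean of 4. Klf2 had a mean of 0.16 in Dll4+/- and 0.68 in Dll4+/+ with no overlap, and the 2 nearest libraries were 0.547 and 0.557.

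Klf2 is also a factor of resting T cells. Together, 10 T cell markers gave 7.24 to 12.2 FPKM in Dll4+/- libraries and 7.96 to 15.3 FPKM in Dll4+/+ libraries, and 0 of the 10 were at 0 in every library. Of 5 that were tested, 1 was higher and 4 lower in Dll4+/-, with a median log2 fold change of -0.13. Cd3g, a chain of the T cell receptor complex, had an unadjusted limma p under 0.05, as 3.36% of all genes had. Its level was 0.838, 1.30, 2.07 and 0.682 FPKM in Dll4+/- replicates 1 to 4 and 3.01, 1.35, 2.16 and 2.95 FPKM in Dll4+/+ replicates 3 to 6. It was lower in the mean, in the same direction as Klf2, with overlap (log2 fold change -0.61, SE 0.24, exact permutation p = 0.0571, limma adjusted p = 0.811). Among immediate early genes, which respond to handling of tissue, 11 of 23 were higher and 12 lower in Dll4+/-. Their log2 fold changes ran from -1.08 to 0.55, with a median of -0.09. Ier2, a growth-factor-induced early gene, was the 1 with an unadjusted limma p under 0.05, as 3.36% of all genes had. It stood at 78.1 to 110.3 FPKM in Dll4+/- and 115 to 133 FPKM in Dll4+/+. It did not overlap, as for 1.69% of all genes in that direction (log2 fold change -0.37, SE 0.14, exact permutation p = 0.0286, limma adjusted p = 0.811). The part of these cells and genes in the difference of Klf2 was not tested.

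The level of Klf2 was then set against that of each other member across the 8 libraries. The Pearson r with Klf2 was 0.73 for Klf4 (exact permutation p = 0.0419, adjusted over 6 relations 0.251), 0.59 for S1pr1, 0.57 for Thbd, 0.40 for Klf6, 0.10 for Cav1 and -0.01 for Piezo1. Spearman's rho was 0.50, 0.40, 0.19, 0.40, -0.14 and 0.05 in the same order, with exact permutation p-values of 0.216 to 0.935. Without the 2 libraries farthest from the median of Klf2, Dll4+/- replicates 2 and 4, r was -0.15 for Klf4, -0.74 for S1pr1, -0.83 for Thbd, -0.32 for Klf6, -0.82 for Cav1 and -0.21 for Piezo1. The positive values were thus absent without those libraries together, which were the lowest in Klf2. Without Dll4+/- replicate 4 alone, r was -0.04 for Thbd and -0.51 for Cav1. Without Dll4+/- replicate 2 alone it was 0.74 and 0.29. For Klf4, Klf6 and S1pr1 it stayed positive without either library alone. On deviations from the genotype means, which take out the shared genotype, r was 0.83 for Klf4 (permutation p = 0.0105, adjusted 0.0628). It was 0.77 for S1pr1 (permutation p = 0.0268, adjusted 0.0805), 0.62 for Thbd and for Klf6, 0.50 for Piezo1 and 0.37 for Cav1. These p-values are not exact and may be too small, because deviations were permuted across genotypes of unequal spread. None of the 6 passed the adjusted threshold on either scale, and libraries still share their cell makeup. The genes most like Klf2 over the 8 libraries were Tpsb2 (r = 0.949), Pccb (0.935), Cma1 (0.934), Lrrn2 (0.930) and Ntn1 (0.923). Tpsb2 and Cma1 encode a tryptase and a chymase of mast cells and stood at means of 3.5 and 2.55 FPKM. Both were lower in Dll4+/- by more than Klf2 was, with log2 fold changes of -0.93 (SE 0.24) for Tpsb2 and -1.20 (SE 0.31) for Cma1 (limma adjusted p = 0.811 each). Tpsb2 ranged from 1.05 to 3.39 FPKM in Dll4+/- and from 3.89 to 5.78 FPKM in Dll4+/+. Cma1 ranged from 0.325 to 3.22 and from 3.24 to 4.22 FPKM. Neither overlapped, as for 1.69% of all genes in that direction. Both were picked by their r with Klf2, which was itself lower in Dll4+/-, so their direction follows in part from that choice. The part of mast cells in the level of Klf2 was not tested. By r, Klf4 ranked 85, S1pr1 498, Thbd 585, Klf6 1842, Cav1 5846 and Piezo1 7366 of 13609 genes.

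The pathway around Klf2 was followed through 8 lists, and in none of them did a gene pass the adjusted threshold. The lists share genes, and the members are counted in those they belong to. The median log2 fold change of all genes tested was -0.02. Of 17 Kruppel-like factors, 13 were tested, 9 were higher and 4 lower in Dll4+/-, and their median was 0.16 (0.03 without Dll4+/- replicates 1 and 4). Klf2 was the 1 with an unadjusted limma p under 0.05. Klf15 and Klf9, both induced by glucocorticoids, had the largest values, 0.92 and 0.79. Klf15 reached 38.4 FPKM in Dll4+/- replicate 1, against 3.66 to 5.99 FPKM in the other 7 libraries, and Klf9 reached 31.6 against 2.70 to 10.7 FPKM. The mean of 13 glucocorticoid-induced genes was 2.13 above its 8-library mean on the log2 scale in that library, and their median log2 fold change between genotypes was 0.67 with it and 0.06 without replicates 1 and 4.

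Upstream of Klf2, the kinases, MEF2 factors, class II histone deacetylases and cerebral cavernous malformation proteins were compared as 1 list. Of 14 genes tested, 9 were higher and 5 lower, with 0 under an unadjusted limma p of 0.05 and a median of 0.06 (0.10 without Dll4+/- replicates 1 and 4). Hdac5, which holds MEF2 in check, had 0.39 (SE 0.24), with 48.0 FPKM in Dll4+/- replicate 1 and 18.5 to 23.0 FPKM elsewhere. Map3k3, which encodes MEKK3, had 0.36 (SE 0.31), with 10.1 FPKM in Dll4+/+ replicate 3 as the lowest value. Mapk7, which encodes ERK5, was at 24.1 ± 2.44 and 23.0 ± 3.45 FPKM (SD, n = 4 each). Of 17 flow sensors 12 were higher and 5 lower, with 0 under the unadjusted threshold and a median of 0.05 (0.16 without Dll4+/- replicates 1 and 4). Piezo1 and Pkd1, which encodes polycystin-1, had the largest values. Pkd1 had 6.49 FPKM in Dll4+/+ replicate 3, against 11.4 to 23.8 FPKM in the other libraries.

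Downstream, 19 genes known to be raised by flow or KLF2 in EC were tested, with 8 higher, 11 lower and a median of -0.10 (0.06 without Dll4+/- replicates 1 and 4). This list counts Klf2 itself and the members Klf4, Thbd, S1pr1 and Cav1, so it is not separate from the values above. Klf2 and Gja5 had an unadjusted limma p under 0.05, both lower in Dll4+/-, as did 1.91% of all genes in that direction. Gja5, which encodes the arterial gap junction protein connexin 40, stood at 23.1, 30.3, 29.7 and 24.4 FPKM in Dll4+/- replicates 1 to 4 and at 36.4, 37.7, 38.1 and 39.6 FPKM in Dll4+/+ replicates 3 to 6. All Dll4+/- libraries were below all Dll4+/+ libraries, as for 1.69% of all genes. The log2 fold change of Gja5 was -0.49 (SE 0.12, exact permutation p = 0.0286, limma adjusted p = 0.811). Gja5 is also a known Notch target in arterial EC. Nos3, the endothelial nitric oxide synthase and a direct KLF2 target, was at 4.95 ± 1.16 and 5.33 ± 0.28 FPKM (SD, n = 4 each), and its log2 fold change was -0.11 (SE 0.15).

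Of 13 tested genes that flow or KLF2 lowers, 10 were higher and 3 lower in Dll4+/-, with 0 under the unadjusted threshold and a median of 0.19, which was -0.01 without Dll4+/- replicates 1 and 4. Edn1, the vasoconstrictor endothelin-1, had the largest value, 1.32 (SE 0.70). It stood at 77.7, 6.11, 5.196 and 18.6 FPKM in Dll4+/- replicates 1 to 4 and at 3.59 to 6.74 FPKM in Dll4+/+, so that replicates 1 and 4 alone stood above the Dll4+/+ range. Vcam1, a leukocyte adhesion molecule, had -0.80 (SE 0.38) and stood at 6.22 and 7.56 FPKM in the same libraries against 20.8 to 24.0 FPKM in the other 6.

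**Figure D5:**
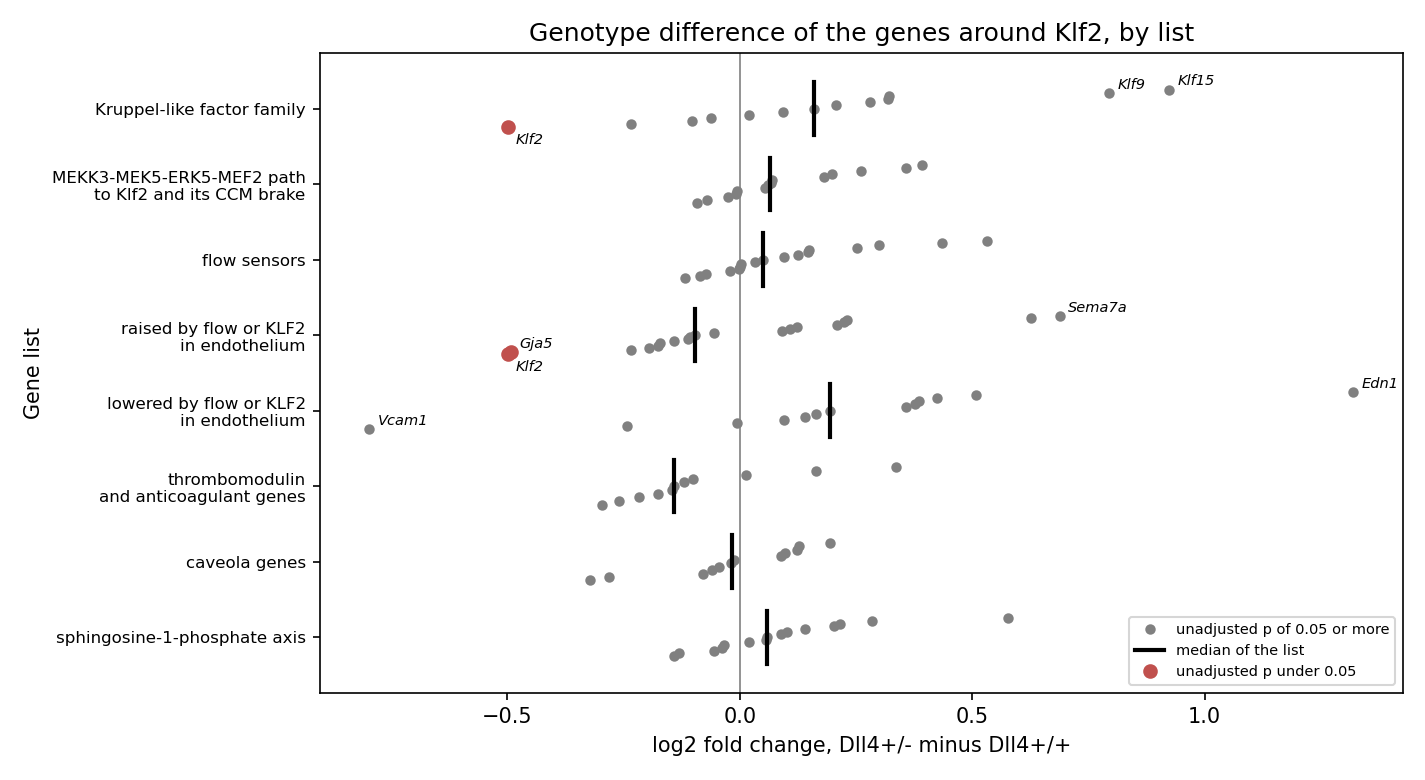
Log2 fold change, Dll4+/- minus Dll4+/+, of each tested gene in 8 lists around Klf2, with a black bar at the median of the list and red for an unadjusted limma p under 0.05. The medians lay between -0.14 and 0.19, and Klf2 and Gja5 were the genes in red.

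The partners of Thbd, Cav1 and S1pr1 included no gene under the unadjusted limma threshold. Of 11 tested genes of the thrombomodulin and anticoagulant list, 3 were higher and 8 lower, with a median of -0.14 (0.01 without Dll4+/- replicates 1 and 4). F2r, the thrombin receptor, had 0.34 (SE 0.34) and Plau, the urokinase gene, -0.30 (SE 0.26). Procr, which presents protein C to thrombomodulin, stood at 4.11 to 6.57 FPKM in Dll4+/- and at 6.61 to 7.05 FPKM in Dll4+/+. These ranges did not overlap but almost touched, and 1.69% of all genes were separated in that direction. The log2 fold change of Procr was -0.26 (SE 0.14, exact permutation p = 0.0286, limma adjusted p = 0.811). Procr, Mapk7 and Nos3 lie outside the rule for named genes and were chosen after their values were seen.

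Of 12 caveola genes 5 were higher and 7 lower, with a median of -0.02, which turned to 0.13 without Dll4+/- replicates 1 and 4. Cavin2, listed as Sdpr, which shapes caveolae in lung EC, had -0.32 (SE 0.20), with 84.6 and 63.6 FPKM in Dll4+/- replicates 1 and 4 and 109.5 to 128 FPKM in the other 6. Cav3, the muscle caveolin, had -0.28 (SE 0.33). Of 15 genes of the sphingosine-1-phosphate axis 10 were higher and 5 lower, with a median of 0.06 (0.02 without those libraries). Sphk1, a kinase that makes the lipid, had 0.58 (SE 0.46), with 29.2 FPKM in Dll4+/- replicate 1 and 4.46 to 8.82 FPKM elsewhere. Sgpp2, a phosphatase that removes it, had 0.28 (SE 0.23).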

How the data were processed

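Total lung RNA was extracted with a MirVana kit, and poly-A selected NEBNext Ultra libraries were sequenced in pairs on a NovaSeq. CASAVA, STAR and the build GRCm38.p4 are named in the submitters' processing notes, and the counting tool and its strand setting are not given in the sources used here. The authors deposited FPKM values, from which zeros they had replaced by 0.005 in 239 genes were set back to 0. The table holds 8 of 10 samples, so the contrast planned with 6 Dll4+/+ pups was run on 4, and Dll4+/+ replicates 1 and 2 were not analysed here. Its columns of ratios and p-values were not used. Replicate numbers and sexes came from sample titles.

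Genes that reached 1 FPKM in 4 or more libraries were fitted on log2(FPKM + 1) with limma 3.58.1 (R 4.3.3), with a mean-variance trend and Benjamini-Hochberg adjustment over 13610 genes. The scale understates changes of low genes. Exact permutation tests were two-sided. P-values measure the spread between pups, and litters were not modelled. Fragments were recovered from the steps of the FPKM values, which came out whole within 0.01 for 100% of tested genes, and served as a voom alternative. A gene's fragment numbers may carry an error factor that is common to the 8 libraries, since the annotated exon length gave whole fragments for only 1454 genes. For 2000 bases, 3 fragments equal 0.0654 to 0.0872 FPKM. Scripts were tested on simulated data.

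The members and lists were chosen with earlier results of these data known. Named genes are the members, list genes with an unadjusted p under 0.05 or otherwise the 2 largest fold changes of a list, the 5 genes most like Klf2, Dll4, Xist, Ddx3y and markers of cell types.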

Additional observations from a re-analysis of the deposited data

How the results depend on the processing

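Other scalings, another pseudocount, voom and the removal of libraries left the sign of Klf2 (-0.65 to -0.40) and Piezo1 as it was, and no member passed the adjusted threshold under any of them. Genes passing it numbered 3 with library weights (Snhg11, Metap1d and Cd59a) and 1 (Snhg11) without Dll4+/- replicates 1 and 4 and Dll4+/+ replicate 3, a setting chosen after seeing the data. Genes under an unadjusted p of 0.05 (457) became 933 without the filter on low FPKM, 164 relative to pan-endothelial markers, 775 with library weights, 904 without those 3 libraries and 226 (without Dll4+/+ replicate 3) to 949 (without Dll4+/- replicate 2) with 1 library left out. Removal without Dll4+/+ replicate 4 gave 255 and without Dll4+/- replicate 3 gave 701. With 1 library left out, Klf6 ranged from -0.11 to 0.10, Cav1 from -0.059 (without Dll4+/- replicate 1) to 0.31, S1pr1 from -0.27 to 0.20, Klf4 from -0.45 to 0.038 and Thbd from -0.36 to 0.17, the last 3 highest without Dll4+/- replicate 4. Without Dll4+/- replicates 1 and 4, Klf6 was -0.048, Thbd 0.056 and S1pr1 0.0082, and without the 3 libraries Klf6 was -0.16 and Thbd 0.048. Klf6 was -0.14 with library weights. The r of Klf2 with Piezo1 was 0.50 on deviations from genotype means and -0.17 to 0.28 with 1 library left out, and that with Cav1 was -0.73 relative to pan-endothelial markers. With 1 library left out, the r with Cav1 was -0.51 to 0.29 and that with Thbd -0.041 to 0.74, both lowest without Dll4+/- replicate 4. The cause of these changes was not tested.

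The labels give no litters, so whether same-numbered pups were littermates is not known, and the numbers were not taken as pairs in the main fit. Genotypes share only numbers 3 and 4, whose pups differ in labelled sex, and deviations of same-numbered libraries correlated at -0.23 and -0.06. With the replicate block, in which only those 4 libraries inform the contrast, 16 genes passed, Klf2 was -0.40, Piezo1 0.81 and Cav1 -0.18. Each member had 514 or more recovered fragments in each library. The SE of Thbd, Cav1 and S1pr1 was 0.30, 0.21 and 0.27 over all libraries and 0.099, 0.10 and 0.16 without Dll4+/- replicates 1 and 4.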
